A study of Mus musculus with 4 samples.

Results

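The IL-1 family ligands of mouse skin described here are Il1a, Il1b, Il1rn, Il1f5, Il1f6, Il1f8, Il1f9, Il18 and Il33. They were taken by gene symbol from the deposited count table and are 9 of its 27998 genes. Each symbol stood on a single row, and each ligand had at least 1 unique molecular identifier (UMI, a counted RNA molecule) in every library. Il1f6, Il1f8 and Il1f9 are also called Il36a, Il36b and Il36g, and Il1f5 is also called Il36rn.

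The study had set out to find molecular differences between control and Ovol1 null skin, with and without imiquimod, by droplet 3′ single-cell RNA sequencing of FACS-sorted adult back skin cells. All mice were of the CD1 strain and 7 to 8 weeks old, and there were 4 libraries, 1 for each group: control and Ovol1 null, each either untreated or given imiquimod. Values of the 4 libraries are given in the order untreated control, imiquimod control, untreated null and imiquimod null. The imiquimod mice had been given 62.5 mg of a 5% cream once on the shaved back. Imiquimod activates Toll-like receptors and its cream is used to model psoriasis in mice. Ovol1 is a transcription factor gene of differentiating epithelia. The null allele, the genotype of the controls, the number of mice behind each library, the gate of the sort and the time between cream and collection are not given in the sources used here.

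IL-1 family cytokines are alarm signals of barrier tissues. Il1a, Il1b, Il18, Il33 and the IL-36 agonists bind receptors of the IL-1 receptor family and act through Myd88 and NF-kB. Most are made without a secretion signal and are stored in the cell or cut by proteases before they act. Il1rn and Il1f5 encode receptor antagonists: the first blocks the IL-1 receptor and the second blocks the IL-36 receptor. In skin, keratinocytes are known as a source of Il1a, Il33 and the IL-36 cytokines, and myeloid cells as a source of Il1b.

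After filtering, 6066 cells of control untreated, 5576 of control imiquimod, 5214 labelled Ovol1 null untreated and 5553 labelled Ovol1 null imiquimod were kept, with median UMIs per cell of 5707, 4760, 5703 and 8394. The lowest total of any kept cell was 3039 UMIs in the last library and 1413 to 1456 in the others. Ovol1 transcripts were not lower in the libraries labelled null. In suprabasal keratinocytes they stood at 42.6 and 57.6 CPM (UMIs scaled to the total of the class) in the untreated control and labelled null libraries and at 46.9 and 170.5 CPM with imiquimod. The 3′ tags may lie outside the deleted part of the gene, so this does not check the labels. The library labelled Ovol1 null imiquimod also stood apart in its keratinocytes: Krt16, an activation keratin, was at 3723 CPM in its suprabasal cells against 10.3 to 70.4 CPM in the other libraries. Most keratinocyte and fibroblast clusters came largely from 1 library or from the 2 untreated ones. Suprabasal cells, for example, were mainly cluster 3 in the untreated libraries, cluster 12 in control imiquimod and cluster 20 in the library labelled Ovol1 null imiquimod. Between libraries, 267 barcode sequences were shared.

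The cell classes were named from marker genes. The same class was compared between libraries only with at least 50 cells in both. A group of 1 library allows no test, so no p-value was computed for any difference between groups. Intervals are exact 95% intervals that cover counting error only and leave out variation between mice and preparations. A ratio of class CPM counted as past the fold at 2 or more in either direction with at least 20 UMIs over both libraries. CPM values of different ligands are not set against each other, since 3′ counts are not scaled for how well each transcript is captured.

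The ligands fell into a mostly epithelial set and a set held largely by other cells. Keratinocytes and sebocytes held 85.9% of Il1rn UMIs in the control untreated library (interval 83.1% to 88.3%) and 91.7% to 92.5% in the other 3. For Il1f5 their share was 95.1% to 98.5% over the 4 libraries, and for Il1f9 it was 91.4% to 97.4%. Il1f6 had enough UMIs for a share only in the library labelled Ovol1 null imiquimod, where epithelial cells held 484 of 495 UMIs, or 97.8% (interval 96.1% to 98.9%). They held all 21 Il1f8 UMIs in control imiquimod and 98.3% of the 234 in the library labelled Ovol1 null imiquimod. The agonists of the IL-36 receptor and its antagonist Il1f5 were thus counted almost wholly in the same epithelial compartment.

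Il1b and Il18 showed the opposite split. Epithelial classes held 3.3% of Il1b UMIs in control untreated, 10.6% in control imiquimod, 7.0% in the library labelled Ovol1 null untreated and 8.8% in that labelled Ovol1 null imiquimod. Their share of Il18 UMIs was 2.7%, 21.4%, 12.1% and 10.9% in the same order. Il33, an alarmin kept in the nucleus, was 85.8%, 93.4% and 94.5% epithelial in the first 3 libraries. In the library labelled Ovol1 null imiquimod its epithelial share was 59.4% (interval 57.6% to 61.1%). Il1a was scarce, with 3, 7, 1 and 128 UMIs in all, and 45.3% of those 128 lay in epithelial classes (interval 36.5% to 54.3%).

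**Figure D1:**
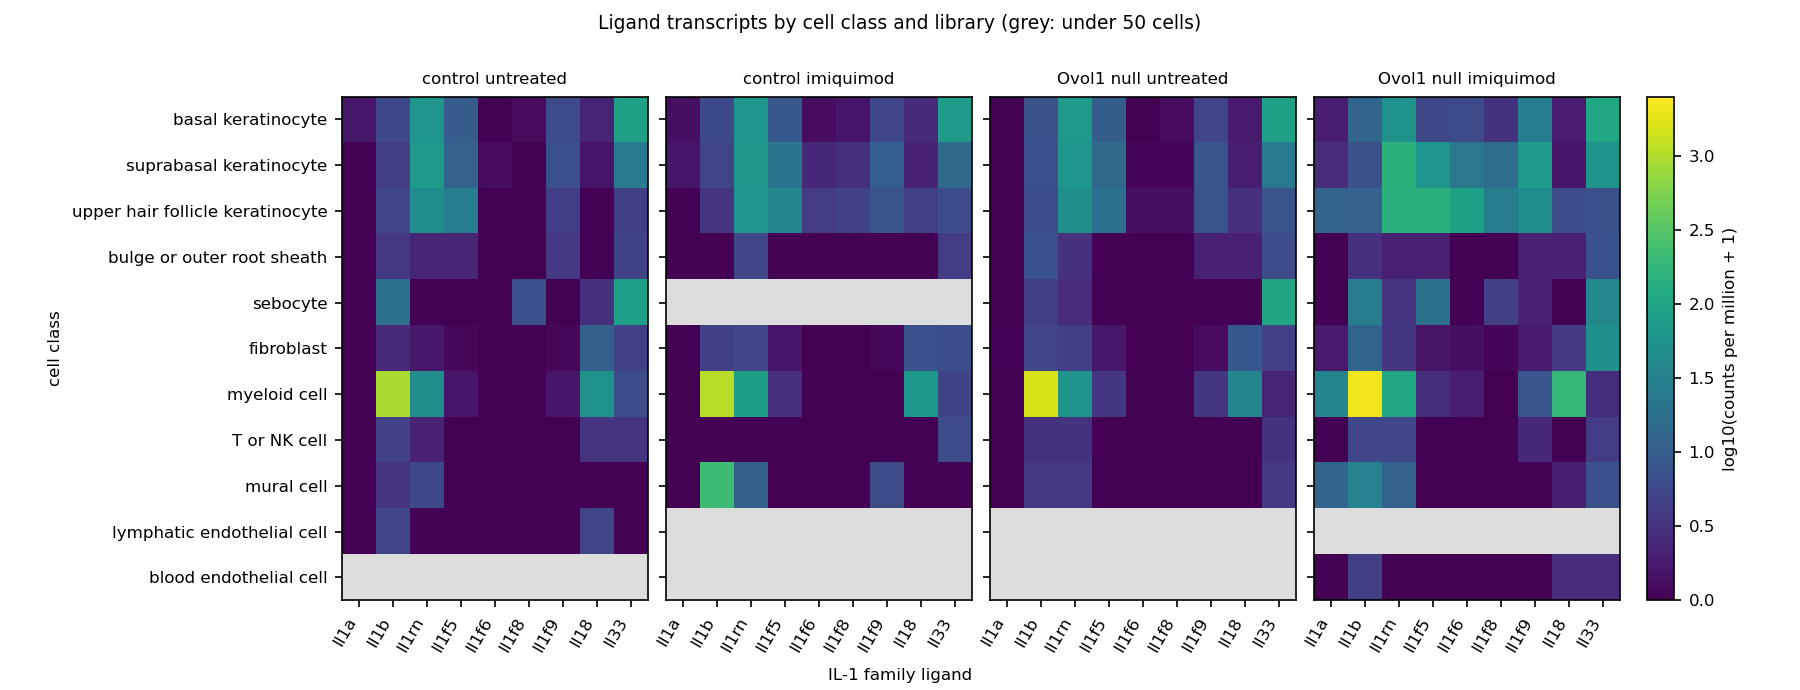
Level of each ligand (columns) in each cell class (rows) in the 4 libraries (panels), as the log10 of CPM + 1, with grey for a class of under 50 cells. The IL-36 ligands are coloured in keratinocyte rows, most strongly in that labelled Ovol1 null imiquimod, and Il1b and Il18 are strongest in the myeloid row.

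**Figure D2:**
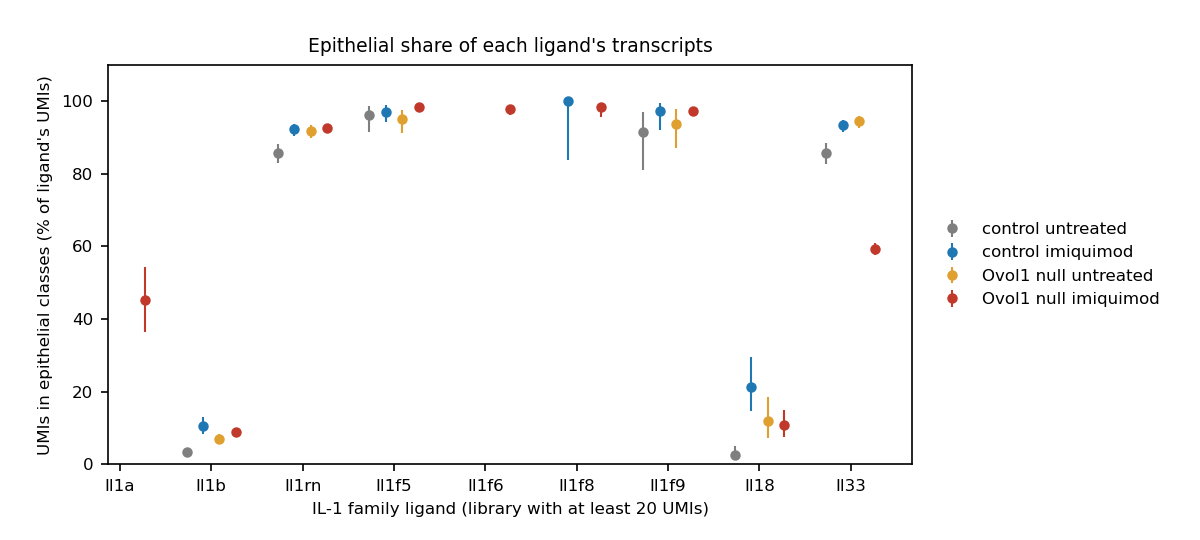
Percent of each ligand's UMIs that lay in keratinocytes and sebocytes, per library, for ligands with at least 20 UMIs, with 95% Clopper-Pearson bars for counting error. Il33 is above 85% in 3 libraries and at 59.4% in that labelled Ovol1 null imiquimod, and Il1b stays between 3.3% and 10.6%.

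Of the 9 genes, 5 lie side by side on chromosome 2 of GRCm38, all on the plus strand. In order they are Il1f8 (chr2:24153161-24160519), Il1f9 (chr2:24186476-24193568), Il1f6 (chr2:24215418-24225702), Il1f5 (chr2:24276954-24283426) and Il1rn (chr2:24336853-24351494). Il1a (chr2:129299610-129309972) and Il1b (chr2:129364570-129371139) lie farther along the same chromosome on the minus strand. Il18 is at chr9:50554827-50581840 and Il33 at chr19:29925114-29960718, both on the plus strand.

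The 250 bases before the transcription start are shown for 4 neighbours whose suprabasal and upper follicle levels were highest in the library labelled Ovol1 null imiquimod, with a motif match in capitals. They were read from RefSeq (GRCm38.p6), 5′ to 3′ on the plus strand. The windows are chr2:24152922-24153171 for Il1f8, chr2:24186226-24186475 for Il1f9, chr2:24276704-24276953 for the first listed start of Il1f5 and chr2:24336610-24336859 for that of Il1rn.
Il1f8: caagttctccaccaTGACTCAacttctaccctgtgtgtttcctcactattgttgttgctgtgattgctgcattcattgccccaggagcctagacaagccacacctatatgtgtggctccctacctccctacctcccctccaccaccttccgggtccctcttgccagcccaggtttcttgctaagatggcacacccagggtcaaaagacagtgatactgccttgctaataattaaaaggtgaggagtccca
Il1f9: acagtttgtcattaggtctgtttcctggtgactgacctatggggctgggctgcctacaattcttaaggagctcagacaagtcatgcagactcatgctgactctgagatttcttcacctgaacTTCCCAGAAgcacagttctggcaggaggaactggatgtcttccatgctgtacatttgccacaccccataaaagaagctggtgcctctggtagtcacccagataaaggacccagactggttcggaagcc
Il1f5: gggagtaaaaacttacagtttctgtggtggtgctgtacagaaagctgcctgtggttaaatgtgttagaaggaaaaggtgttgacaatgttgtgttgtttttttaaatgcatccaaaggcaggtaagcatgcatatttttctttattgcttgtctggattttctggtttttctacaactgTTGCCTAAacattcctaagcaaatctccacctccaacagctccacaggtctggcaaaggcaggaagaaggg
Il1rn: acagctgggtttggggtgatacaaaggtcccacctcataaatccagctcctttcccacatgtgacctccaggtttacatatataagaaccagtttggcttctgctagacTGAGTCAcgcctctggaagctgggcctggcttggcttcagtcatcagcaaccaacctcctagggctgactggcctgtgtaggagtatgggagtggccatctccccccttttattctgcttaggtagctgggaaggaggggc
The match in Il1f8 is TGACTCA, a form of the AP-1 motif TGANTCA, 236 bases before the start. In Il1f9 it is TTCCCAGAA, a form of the STAT motif TTCNNNGAA, 128 bases before the start. The Il1f5 window holds TTGCCTAA, a form of the C/EBP motif TTGCNNAA, 71 bases before the start, and that of Il1rn holds the AP-1 form TGAGTCA, 141 bases before it. Both strands were searched, and none of these matches overlaps another motif searched.

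Over 32817 promoter windows of the same 250 bases in the table, 6.75% held the AP-1 motif, 7.01% the STAT motif and 9.57% the C/EBP motif. A motif core of Ovol factors, CCGTTA, stood in 2.17% of all promoters and in none of those of the 8 ligands found in the table, and an NF-kB motif stood in 3.90% of all and in none of these. Il1a had an AP-1 match 12 bases before its start, the second start of Il1f5 a STAT match 98 bases before it and the second start of Il33 a C/EBP match 85 bases before it. Il1b, Il18, the other starts of Il1rn and the first of Il33 had no match to the 5 motifs. A match describes these letters and is not a binding site, and no match says only that the letters are not in the window. Il1f6 was not found in the promoter table.

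The IL-36 agonists Il1f6 and Il1f8 had few UMIs in 3 libraries, and all 3 agonists were highest in the library labelled Ovol1 null imiquimod. Il1f6 had 0, 3, 0 and 66 UMIs in basal keratinocytes, 1, 8, 1 and 171 in suprabasal keratinocytes and 0, 4, 1 and 247 in upper hair follicle keratinocytes. The last library was the highest in all 3 classes, and its values were 5.11 CPM in basal, 21 CPM in suprabasal and 86.4 CPM in upper follicle cells. The intervals of these 3 levels did not overlap, with upper follicle above suprabasal and suprabasal above basal. An Il1f6 UMI was found in 21.9% of upper follicle cells (interval 16.6% to 27.9%), 23.1% of suprabasal cells (19.1% to 27.4%) and 7.38% of basal cells, at median depths of 10819, 18745 and 14235 UMIs. The first 2 of these shares overlapped. With every cell thinned to 1000 UMIs the shares were 7.14% (4.14% to 11.3%), 2.16% (0.994% to 4.07%) and 0.615%, from 16, 9 and 5 cells. In upper follicle cells 8 of the 49 cells with a UMI held 50% of the Il1f6 UMIs, with 33 in 1 cell, and in suprabasal cells 21 of 96 did, with 21 in 1 cell. Against control imiquimod Il1f6 was 17.8-fold higher in basal cells (interval 5.83 to 88.5), 14.1-fold in suprabasal cells (6.98 to 33.1) and 29.3-fold in upper follicle cells (11.3 to 108). Against the library labelled Ovol1 null untreated it was at least 11.3-fold higher in basal cells, where that library had no UMI and 3 counts were put in its place. In suprabasal and upper follicle cells, with 1 UMI in that library, the ratios were 137 (24.3 to 5443) and 230.4 (41.0 to 9137).

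Il1f8 had the same order of classes at lower counts. It had 1, 6, 2 and 28 UMIs in basal cells, 0, 10, 1 and 124 in suprabasal cells and 0, 5, 1 and 75 in upper follicle cells. In the library labelled Ovol1 null imiquimod the suprabasal level was 15.2 CPM and the upper follicle level 26.2 CPM, and the intervals did not overlap. An Il1f8 UMI was held by 20.2% of suprabasal and 17.4% of upper follicle cells, and by 3 and 6 cells after thinning, too few to order them. Against control imiquimod Il1f8 was 3.78-fold higher in basal cells (1.53 to 11.2), 8.16-fold in suprabasal cells (4.29 to 17.4) and 7.11-fold in upper follicle cells (2.92 to 22.5). The suprabasal ratio to the library labelled Ovol1 null untreated, with 1 UMI there, was 99.4 (17.5 to 3956).

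Il1f9 was the IL-36 agonist counted in all 4 libraries. It had 24, 45, 28 and 356 UMIs in basal cells (5.08, 4.30, 4.21 and 27.5 CPM), and 21, 51, 44 and 598 in suprabasal cells (5.70, 9.52, 6.74 and 73.4 CPM). Upper follicle cells had 6, 9, 18 and 126 (3.24, 6.64, 6.75 and 44.1 CPM). In both untreated libraries the intervals of the keratinocyte classes overlapped. In control imiquimod suprabasal cells stood above basal cells, and upper follicle cells overlapped both. In the last library all 3 separated, with suprabasal above upper follicle and upper follicle above basal. Il1f9 thus led in a different class from Il1f6 and Il1f8 in that library. Relative to the library labelled Ovol1 null untreated it was 6.55-fold higher in basal cells (4.45 to 10.0), 10.9-fold in suprabasal cells (8.01 to 15.2) and 6.53-fold in upper follicle cells (3.97 to 11.4). Relative to control imiquimod the ratios were 6.40 (4.69 to 8.94), 7.72 (5.79 to 10.5) and 6.64 (3.39 to 14.9). Both sets of ratios use the library labelled Ovol1 null imiquimod.

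In control imiquimod suprabasal Il1f9 was 1.67-fold that of control untreated, with an interval of 0.99 to 2.92, and basal Il1f9 was 4.30 against 5.08 CPM. The agonists summed were at 5.97, 12.9, 7.05 and 109.7 CPM in suprabasal cells, at 5.29, 5.16, 4.51 and 34.8 CPM in basal cells and at 3.24, 13.3, 7.50 and 157 CPM in upper follicle cells.

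**Figure D3:**
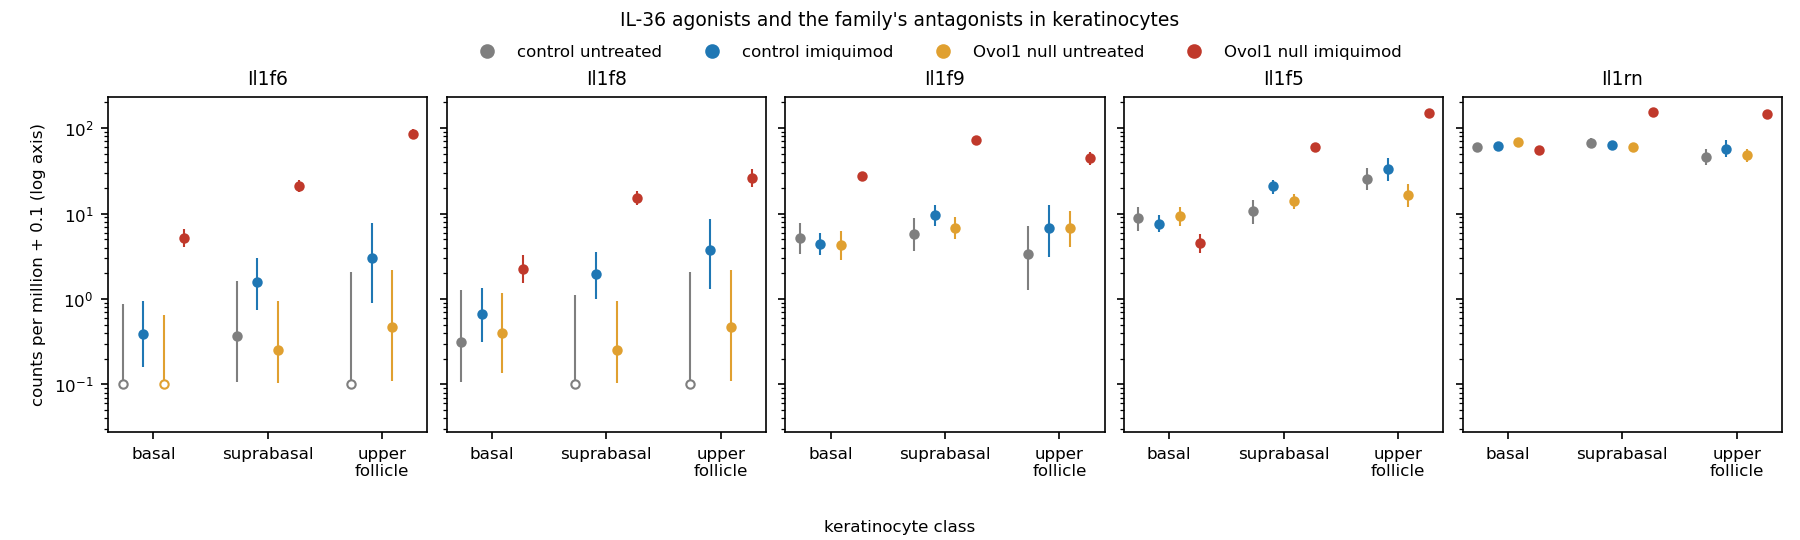
CPM + 0.1 on a log axis of Il1f6, Il1f8, Il1f9, Il1f5 and Il1rn (panels) in basal, suprabasal and upper hair follicle keratinocytes of the 4 libraries, with exact Poisson bars and open markers for 0 UMIs. The library labelled Ovol1 null imiquimod is highest in all 3 classes for the agonists, and in suprabasal and upper follicle cells, but not in basal cells, for Il1f5 and Il1rn.

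In single cells, at least 1 IL-36 agonist UMI was seen in 67.3% of suprabasal cells of the library labelled Ovol1 null imiquimod, against 3.95%, 8.42% and 4.58% in control untreated, control imiquimod and the library labelled Ovol1 null untreated. The shares were 31.7% against 2.56%, 2.85% and 2.59% in basal cells, and 37.5% against 1.61%, 7.14% and 3.91% in upper follicle cells. These cells differed in depth: the median suprabasal cell had 18745 UMIs in that library and 6712, 8260 and 7128 in the others. With every cell thinned to 1000 UMIs, suprabasal shares were 0.377%, 1.72%, 0.782% and 7.21%, and upper follicle shares were 0.269%, 0.840%, 0.586% and 12.5%, so the library labelled Ovol1 null imiquimod stayed the highest. No kept cell had fewer than 1000 UMIs. In fibroblasts, which should lack these genes, the share was 0.0892% to 0.154% in the first 3 libraries and 1.04% in the last, and 0% and 0.253% after thinning, with median depths of 4492 to 8026 UMIs. Of 1453 keratinocytes of these 3 classes in the library labelled Ovol1 null imiquimod, 622 held an agonist UMI and 205 held 2 or 3 different agonists. After thinning 83 held one and 7 held several, so how often the agonists share a cell was not measurable at that depth.

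The 2 antagonist genes were present in all libraries and were higher in suprabasal and upper hair follicle keratinocytes of the library labelled Ovol1 null imiquimod. Il1f5 had 39, 111, 90 and 489 UMIs in suprabasal cells (10.6, 20.7, 13.8 and 60.1 CPM), and 47, 45, 44 and 427 in upper follicle cells (25.4, 33.2, 16.5 and 149 CPM). Upper follicle cells had the highest Il1f5 level in every library, with intervals clear of the suprabasal ones in the first library and the last, and overlapping in the other 2. Its ratio to the library labelled Ovol1 null untreated was 4.35 in suprabasal (3.47 to 5.51) and 9.05 in upper follicle cells (6.63 to 12.7), and its ratio to control imiquimod 2.90 (2.35 to 3.59) and 4.50 (3.30 to 6.26). Basal cells went the other way. They had 41, 79, 61 and 57 Il1f5 UMIs (8.68, 7.55, 9.16 and 4.41 CPM), and the last value was 2.08-fold lower than that of the library labelled Ovol1 null untreated (interval 1.42 to 3.04).

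Il1rn was counted in every keratinocyte class and in myeloid cells. Basal cells had 283, 639, 453 and 719 UMIs (59.9, 61.1, 68.0 and 55.6 CPM), a narrow range over the 4 libraries. Suprabasal cells had 250, 336, 391 and 1245 UMIs (67.8, 62.7, 59.9 and 153 CPM), and upper follicle cells 85, 78, 128 and 418 (45.9, 57.6, 48.0 and 146 CPM). In the library labelled Ovol1 null imiquimod these were 2.55-fold (2.28 to 2.87) and 3.05-fold (2.49 to 3.74) those of the library labelled Ovol1 null untreated. They were 2.44-fold (2.16 to 2.76) and 2.54-fold (1.99 to 3.28) those of control imiquimod. The intervals of suprabasal, basal and myeloid Il1rn overlapped in control imiquimod and in the library labelled Ovol1 null untreated. In control untreated suprabasal cells stood above myeloid cells, and basal cells overlapped both. In the library labelled Ovol1 null imiquimod, suprabasal and upper follicle cells, which overlapped each other, stood above myeloid cells at 104 CPM. Without the myeloid subclusters led by fibroblast genes, a comparison added after seeing the data, myeloid Il1rn stood at 71.4, 101, 68.3 and 99.1 CPM. Myeloid cells then had the highest level in control untreated and in the library labelled Ovol1 null untreated, close to the suprabasal and basal levels there. The order of these classes in the untreated libraries thus depended on that choice. Bulge and outer root sheath cells, keratinocytes of the lower follicle, had 1 to 3 Il1rn UMIs per library in 133 to 216 cells.

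Il33 was highest in basal cells and sebocytes in the untreated libraries and in basal cells in control imiquimod, which had too few sebocytes for a level. Fibroblasts held few Il33 UMIs in these libraries and many in the library labelled Ovol1 null imiquimod. Basal cells had 408, 770, 583 and 1363 UMIs (86.3, 73.6, 87.6 and 105 CPM) and sebocytes 43 (82 CPM), 5 in 18 cells, 61 (102.4 CPM) and 34 (38.2 CPM). Basal cells and sebocytes did not differ beyond counting error in control untreated and in the library labelled Ovol1 null untreated. Sebocyte Il33 was 2.68-fold lower in the library labelled Ovol1 null imiquimod than in that labelled Ovol1 null untreated (1.73 to 4.20). Suprabasal cells had 88, 74, 152 and 457 UMIs (23.9, 13.8, 23.3 and 56.1 CPM), with ratios of 2.41 (2.0 to 2.91) to the library labelled Ovol1 null untreated and 4.06 (3.17 to 5.27) to control imiquimod. The suprabasal classes also differed in basal keratins, with Krt5 at 2712, 746, 2642 and 4044 CPM and Krt14 at 1096, 1072, 1416 and 12780 CPM. The part of this difference in the suprabasal Il33 ratios was not tested. Upper follicle cells had 6, 7, 18 and 17 UMIs, or 3.24 to 6.75 CPM, so Il33 was low in the class where Il1f5, Il1f6 and Il1f8 were highest.

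Fibroblasts held 80, 56, 43 and 1271 Il33 UMIs, which is 3.58, 5.50, 3.54 and 49.5 CPM. The last value (interval 46.8 to 52.3) was 14-fold that of the library labelled Ovol1 null untreated (10.3 to 19.4) and 9.0-fold that of control imiquimod (6.88 to 12). It overlapped the suprabasal level of its own library and lay below the basal level. Fibroblasts held 12.5%, 6.09%, 4.96% and 40.2% of all Il33 UMIs. An Il33 UMI was seen in 1.94%, 2.14%, 2.0% and 20.3% of fibroblasts, and after thinning to 1000 UMIs in 0.33%, 0.62%, 0.20% and 3.54%, with median depths of 6762, 4492, 6234 and 8026 UMIs.

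The fibroblast counts were set beside the 9 basal keratinocyte markers, to show how much keratinocyte RNA was counted in that class. Summed, these markers stood in fibroblasts at 1.25%, 4.83%, 3.88% and 1.35% of their basal level, and Il33 at 4.15%, 7.48%, 4.04% and 47.0% of its own. All 9 markers had UMIs in fibroblasts of every library. In the last library Il33 in fibroblasts thus stood far above the share of the marker genes. With each library clustered on its own, the 6 fibroblast clusters of at least 50 cells in the library labelled Ovol1 null imiquimod ranged from 17.2 to 119 CPM with a median of 32.9. The highest of them, with 710 of 3168 cells, held 746 of the 1271 Il33 UMIs (58.7%), and the next stood at 61.5 CPM. Without that cluster, a comparison added after seeing the data, fibroblast Il33 was 27.1 CPM, which is 7.65-fold the level of the library labelled Ovol1 null untreated (5.60 to 10.7) and 4.92-fold that of control imiquimod (3.73 to 6.60). The 8 of control untreated ranged from 0 to 14.7 CPM, the 4 of control imiquimod from 1.56 to 21 and the 5 of the library labelled Ovol1 null untreated from 0 to 7.12. Fibroblast clusters were largely those of single libraries, with cluster 0 from the library labelled Ovol1 null imiquimod, 1 from control imiquimod and 2 mostly from control untreated.

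**Figure D4:**
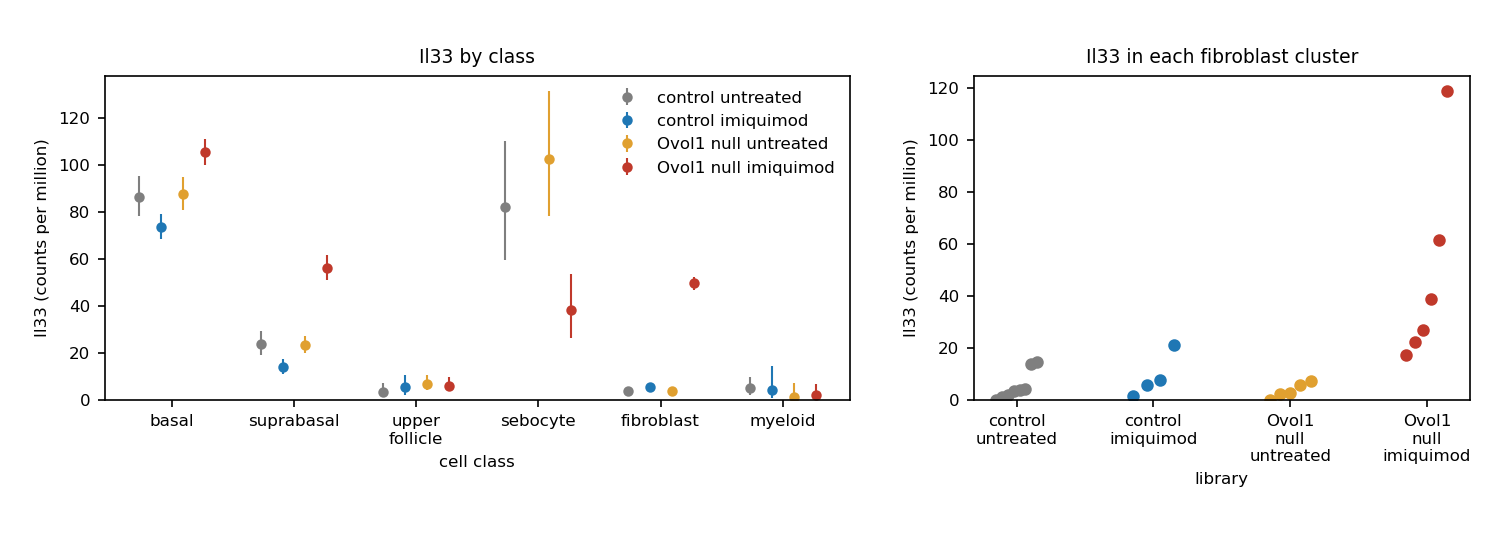
Il33 in CPM, with exact Poisson bars, by cell class and library (left) and in each fibroblast cluster of at least 50 cells when every library was clustered alone (right). All 6 fibroblast clusters of the library labelled Ovol1 null imiquimod lie at 17.2 CPM or above, and those of the other libraries lie between 0 and 21 CPM.

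Il1b, the main inflammasome-processed cytokine of the family, was a myeloid transcript in all 4 libraries. Myeloid cells had 1492, 553, 1262 and 2368 Il1b UMIs, which is 931 CPM (885 to 979.9), 1081 (993 to 1175), 1576 (1490.1 to 1665) and 2144 (2059 to 2232). They held 92.9%, 78.0%, 88.9% and 79.8% of all Il1b UMIs, and no other class reached their level in any library. The ratio was 1.16 in control imiquimod against control untreated (1.05 to 1.28) and 1.69 in the library labelled Ovol1 null untreated against control untreated (1.57 to 1.82). For the library labelled Ovol1 null imiquimod it was 1.36 against that labelled Ovol1 null untreated (1.27 to 1.46) and 1.98 against control imiquimod (1.81 to 2.18), so all 4 lay within the fold. The counts rested on few cells: 50% of the myeloid Il1b UMIs lay in 14, 8, 7 and 11 cells of 214, 92, 112 and 136. A single cell held up to 139, 51, 176 and 257. An Il1b UMI was found in 54.2%, 63.0%, 54.5% and 69.1% of myeloid cells, and in 32.2%, 39.1%, 34.8% and 48.5% after thinning, at median depths of 6243, 4427, 5538 and 7488 UMIs. In T or NK cells, which should lack Il1b, there were at most 3 UMIs per library.

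The myeloid class was not the same mixture in each library. Langerhans-like cells, the dendritic cells of the epidermis, numbered 6, 3, 6 and 57. They held 5, 2, 6 and 1144 Il1b UMIs, so 1144 of the 2368 myeloid Il1b UMIs of the library labelled Ovol1 null imiquimod came from them, at 2240 CPM. Dendritic-like cells (25, 8, 13 and 35) held 175, 32, 16 and 433 Il1b UMIs, and macrophage-like cells (23, 29, 12 and 20) held 25, 24, 22 and 55. In the first 3 libraries most Il1b UMIs lay in subclusters with no name from the markers, with 793, 324 and 746 UMIs in 78, 34 and 51 cells. One of these, of 119 cells over all libraries, was led by Mmp12, Retnla and Ccl17 and stood at 2331 CPM. Subclusters led by fibroblast genes held 63, 18, 18 and 12 cells. Without them myeloid Il1b stood at 1214, 1106, 1573 and 2422 CPM, and the ratio of the library labelled Ovol1 null imiquimod to control imiquimod was 2.19 (1.96 to 2.45), past the fold. A group led by S100a9 and G0s2, genes of neutrophils, held 19, 0, 12 and 3 cells. Its neutrophil markers summed to 888 CPM, against 2.0 to 161 CPM in the other subclusters, but Ly6g and Cxcr2 had no UMI. Its macrophage markers summed to 5013 CPM and its suprabasal markers to 5654, so its 34 cells together were not a clear neutrophil group. Its Langerhans markers summed to 25347 CPM, within the 8255 to 55426 CPM of the other subclusters. Its 3 cells of the library labelled Ovol1 null imiquimod each held 5 or 6 of the 9 neutrophil markers, with 56 to 256 S100a9 UMIs. S100a9 is not particular to neutrophils here: suprabasal cells of the library labelled Ovol1 null imiquimod had a median of 98.5 UMIs. With 1 library per group, more cells of a type and more RNA in each cell cannot be told apart in the class sums.

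Il18, another inflammasome-processed ligand, was highest per UMI in myeloid cells in each library. They had 85, 33, 28 and 200 UMIs (53.1, 64.5, 35.0 and 181 CPM), and the last value was 5.18-fold that of the library labelled Ovol1 null untreated (3.48 to 7.99) and 2.81-fold that of control imiquimod (1.94 to 4.19). Langerhans-like cells held 179 of those 200 UMIs, against 7, 2 and 3 in the other libraries. Their Il18 level was 177, 107, 91 and 350 CPM, the first 3 from 6, 3 and 6 cells. Langerhans-like cells were 2.80%, 3.26%, 5.36% and 41.9% of myeloid cells, so the highest share and the highest Il18 level fell in the same library, while the first 3 libraries did not follow one order in both. The part of that share in the result was not tested.

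Fibroblasts, at a lower level per UMI, held at least 50% of the Il18 UMIs in the first 3 libraries. They had 234, 63, 94 and 69 UMIs (10.5, 6.19, 7.74 and 2.69 CPM), which is 70.7%, 50%, 66.7% and 22.7% of the total. Fibroblast Il18 was 2.88-fold lower in the library labelled Ovol1 null imiquimod than in that labelled Ovol1 null untreated (2.09 to 3.99) and 2.30-fold lower than in control imiquimod (1.61 to 3.29). Il18 in fibroblasts was at 19.7%, 9.60%, 22.1% and 1.48% of the myeloid level, where the 11 macrophage markers were at 1.49%, 1.11%, 1.02% and 2.13%. Only in the last library did Il18 lie below the markers. There the macrophage markers of myeloid cells summed to 3367 CPM, against 5549 to 7754 CPM in the others. Most myeloid Il18 UMIs of that library lay in Langerhans-like cells, so its marker share is not that of the cells holding Il18.

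**Figure D5:**
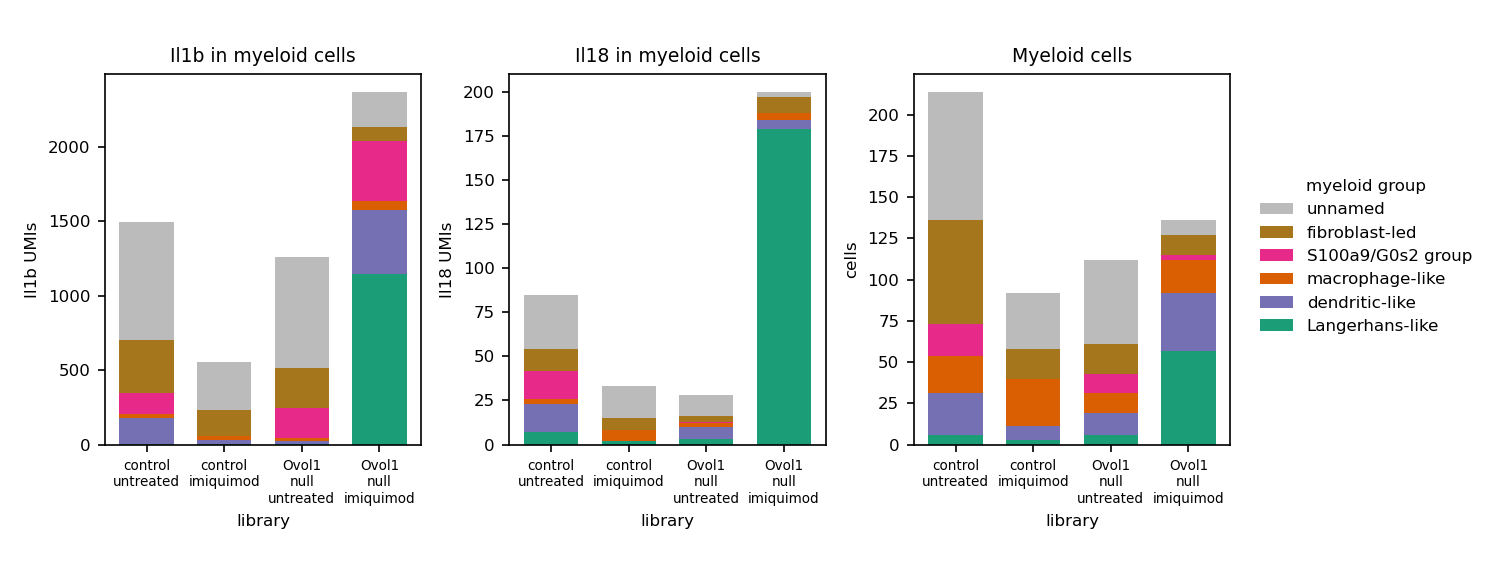
Stacked bars of Il1b UMIs, Il18 UMIs and cells in each myeloid group of the 4 libraries. Langerhans-like cells number 6, 3, 6 and 57 and hold 1144 Il1b UMIs and 179 Il18 UMIs in the library labelled Ovol1 null imiquimod.

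Outside the myeloid class Il1b was low but not absent. Basal cells had 22, 50, 40 and 155 UMIs, and fibroblasts had 37, 34, 51 and 299. Among cells of other classes, 15 held 10 or more Il1b UMIs each in the library labelled Ovol1 null imiquimod, 367 in all. They were 8 cells of the fibroblast class with 196 UMIs, 3 basal cells with 94 and 1 each of the mural, sebocyte, suprabasal and upper follicle classes. At least 3 of 9 neutrophil markers were found in 9 of the 15, among them 7 of the 8 fibroblast-class cells and 1 of the 3 basal cells. Over all fibroblasts and all basal cells of that library the shares were 0.221% and 0.123%, and these count the same cells. The remaining basal cells had 1 and 0 neutrophil markers, with 367 and 534 UMIs of the Langerhans markers, and the first held 120532 UMIs in all. The sebocyte had 1 neutrophil marker and 98 Langerhans marker UMIs. In control imiquimod 42 of 43 mural Il1b UMIs lay in 1 cell with 6 such markers. Without these cells, a comparison added after seeing the data, the log2 ratio of fibroblast Il1b to the library labelled Ovol1 null untreated was -0.07. With them it had been past the fold at 2.78-fold (2.06 to 3.81). The cells were chosen by their Il1b count, and no fibroblast of that untreated library had 10 or more, so the ratio could only fall. The value shows only how much of the ratio rested on these cells.

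Il1a, an alarmin that is active without processing, had 128 of its 139 UMIs in the library labelled Ovol1 null imiquimod. There, 38 lay in 3 myeloid cells of the S100a9 and G0s2 group, which held 403 Il1b and 35 Il1rn UMIs as well. Another 32 lay in 19 upper follicle cells (11.2 CPM), 14 in 12 suprabasal cells, 12 in 6 basal cells, 20 in 10 cells of the fibroblast class and 12 in 1 mural cell. Against the libraries labelled Ovol1 null untreated and control imiquimod, upper follicle Il1a was at least 9.95-fold and at least 5.06-fold higher, and myeloid Il1a at least 9.19-fold and at least 5.87-fold higher. The upper follicle UMIs were spread over many cells and the myeloid and mural ones were not. Of the 20 in the fibroblast class, 2 cells held 5 each, and these cells had 3 and 5 neutrophil markers. No Il1a UMI was found in T or NK cells, bulge cells or sebocytes in any library.

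Over all ligands and classes, the comparisons differed in how many ligand and class pairs passed the fold. Between the library labelled Ovol1 null imiquimod and that labelled Ovol1 null untreated, 37 of 72 pairs had at least 20 UMIs over both, of which 24 (64.9%) were higher and 3 (8.11%) lower with imiquimod. Of all gene and class pairs in that comparison, 9.55% were higher and 14.2% lower. Of the 24, 12 had 3 UMIs or fewer in the untreated library and so reached the minimum through the higher library alone. The 3 lower pairs were Il1f5 in basal cells, Il18 in fibroblasts and Il33 in sebocytes. Between the libraries labelled Ovol1 null imiquimod and control imiquimod, 35 of 63 pairs were measured, with 23 (65.7%) higher and 2 (5.71%) lower, where 9.72% and 11.0% of all gene and class pairs were. Here 6 of the 23 had 3 UMIs or fewer in control imiquimod, and the lower pairs were Il18 in fibroblasts and Il1b in mural cells, the latter resting on 1 cell. The 2 comparisons share the library labelled Ovol1 null imiquimod. Without the cells of other classes that held 10 or more Il1b UMIs, 19 pairs were higher in the first and 18 in the second. Those cells were chosen by their Il1b count, and all but 1 were in the library labelled Ovol1 null imiquimod.

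The other 2 comparisons, which share control untreated, showed fewer such pairs. In control imiquimod against control untreated, 6.53% of all gene and class pairs were higher and 8.52% lower. Of the ligand pairs, 3 of 21 measured were higher (14.3%) and 0 lower. The 3 were Il1b in fibroblasts at 2.02-fold (1.23 to 3.30), Il1b in mural cells, resting on 1 cell, and Il1rn in fibroblasts at 6.04-fold (3.34 to 11.5). In the library labelled Ovol1 null untreated against control untreated, 3.46% of all pairs were higher and 2.64% lower. Of the ligand pairs, 4 of 23 were higher (17.4%) and 0 lower. They were Il1b in fibroblasts at 2.53-fold, Il1rn in fibroblasts at 4.71-fold (2.59 to 8.99), Il1f9 in upper follicle cells at 2.08-fold (0.79 to 6.42) and Il33 in upper follicle cells, with the same counts of 18 against 6, at 2.08-fold. The last 2 intervals include 1. Fibroblast Il1b stood in every library at a lower share of its myeloid level than the macrophage markers did. Fibroblast Il1rn had 16, 44, 41 and 64 UMIs and stood at 1.20%, 7.08%, 4.96% and 4.48% of its basal level, where the basal markers stood at 1.25%, 4.83%, 3.88% and 1.35%. It moved with those markers in the first 3 libraries, and their part in the result was not tested. With edgeR's TMM factors the log2 ratios of a class shifted by -0.21 (sebocytes, libraries labelled Ovol1 null imiquimod against untreated) to 0.24 (fibroblasts, the same comparison). All 59 ligand and class pairs past the fold kept their direction under those factors, and 1 of them, Il1f5 in basal cells, came within the fold.

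Of 32 genes around these ligands (receptors and decoys, processing proteins and signal proteins), 53 of 168 measured gene and class pairs were higher and 15 lower in the library labelled Ovol1 null imiquimod than in that labelled Ovol1 null untreated, with a median log2 ratio of 0.47. These are 31.5% and 8.93%, beside 9.55% and 14.2% of all gene and class pairs. Against control imiquimod 32 of 151 were higher (21.2%) and 13 lower (8.61%), beside 9.72% and 11.0% of all (median 0.15). In control imiquimod against control untreated the counts were 27 (18.2%) and 10 (6.76%) of 148, beside 6.53% and 8.52% of all (median 0.22). In the library labelled Ovol1 null untreated against control untreated they were 1 (0.658%) and 8 (5.26%) of 152, beside 3.46% and 2.64% of all (median -0.05). The shares of list genes lower were thus at or below those of all genes in 3 of the comparisons. Of the 53 higher pairs and of the 32 higher pairs, 5 each had 3 UMIs or fewer in the library compared against. Il18bp, which codes for a soluble decoy of Il18, was higher than in the library labelled Ovol1 null untreated in each of 5 classes: 12.2-fold in basal (5.46 to 33.8), 10.4-fold in suprabasal (4.58 to 29.3), 11.2-fold in upper follicle, 3.37-fold in fibroblast and 4.17-fold in myeloid cells. It was also higher in control imiquimod than in control untreated, by 8.36-fold in basal, 3.34-fold in fibroblast and 7.20-fold in myeloid cells.

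Other genes of this list differed by class. Over all genes, the shares higher and lower in the library labelled Ovol1 null imiquimod against that labelled Ovol1 null untreated were 9.84% and 18.6% in suprabasal, 10.5% and 17.9% in upper follicle, 9.35% and 17.8% in basal, 5.77% and 16.5% in fibroblast and 13.8% and 11.6% in myeloid cells. In suprabasal cells 12 were higher and 3 lower of 26 in the library labelled Ovol1 null imiquimod against that labelled Ovol1 null untreated, among them Capn2, a calpain subunit, 18.9-fold (13 to 28.7) and Serpinb1a, an inhibitor of neutrophil proteases, 7.06-fold (4.73 to 10.9), while Il18r1, a subunit of the Il18 receptor, was 6.55-fold lower. In upper follicle cells 12 were higher and 2 lower of 24, with Gsdmd, the pore-forming protein cut by inflammatory caspases, at 15.9-fold (4.07 to 136), Irak2 at 6.16-fold and Irak3 at 5.60-fold. In basal cells 6 were higher and 4 lower of 26, the latter near the share of all genes. Capn2 was 4.76-fold higher there, and Nlrp1b, an inflammasome sensor, 42.7-fold lower, with 1 UMI against 22. Il1r2, the decoy receptor of IL-1, was 4.66-fold lower in basal cells and 7.70-fold higher in myeloid cells (6.25 to 9.57). In fibroblasts 6 were higher and 1 lower of 25, with Il1r1, the signalling receptor of IL-1, 2.53-fold and Ctsc, a lysosomal protease, 3.46-fold higher, and Serpinb1a 8.92-fold lower. Myeloid cells had 3 higher, near the share of all genes, and 1 lower of 23, with Traf6, an adaptor of the shared signal path, 3.34-fold higher and Aim2, a DNA sensor, 2.59-fold lower.

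Relative to control imiquimod, suprabasal cells of the library labelled Ovol1 null imiquimod had 9 list genes higher and 4 lower of 25, beside 8.98% and 13.2% of all genes. Capn2 was 7.91-fold (6.0 to 10.6), Serpinb1a 5.59-fold and Ctsc 5.18-fold higher, and Il1r2 was 5.84-fold lower. In basal cells 4 of 26 were higher, near the 12.1% of all genes, and 2 were lower, beside 13.9% of all genes. Capn2 was 4.26-fold and Casp1, the caspase that cuts Il1b and Il18, 4.20-fold higher there, and Nlrp1b was 39.5-fold and Il1r2 6.56-fold lower. Fibroblasts, where 5.69% of all genes were higher and 13% lower, had 3 higher and 1 lower: Ctsc 2.78-fold, Il1r1 2.26-fold and Nfkbia, an NF-kB inhibitor, 2.24-fold higher, and Il1r2 2.77-fold lower. In control imiquimod against control untreated Il1r2 was 3.73-fold higher in suprabasal, 5.83-fold in upper follicle and 2.86-fold in fibroblast cells.

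The genes whose pattern was most like each ligand were sought over 37 pairs of class and library and 12318 genes, by Pearson's r of log2(CPM + 10). These pairs share libraries, depth and class markers, so r is a description and carries no p. Il1f6 was most like Uox (r = 0.99), Sprr2e (0.99) and Defb3 (0.95), Il1f8 like Rnase2b (0.97), Sprr2e (0.93) and Il1f6 (0.93), and Il1f9 like Tmem125 (0.93), Sprr1b (0.90) and Csta1 (0.90). For Il1f5 they were Stx19 (0.95), Ceacam19 (0.95) and Dsg1b (0.94), and for Il1rn Gm15987 (0.90), Hcar2 (0.89) and Plbd1 (0.87). Sprr1b and Sprr2e code for proteins of the cornified envelope, and Dsg1b for a desmosomal cadherin. Il1b was most like Clec4e (0.96), Ms4a6c (0.94) and Pld4 (0.93), and Il18 like Clec4n (0.96), Xlr (0.95) and Adam23 (0.95). Il33 had no gene above 0.83, with Gpt (0.83), Psat1 (0.82) and Ptprz1 (0.81), and Il1a none above 0.69, with Sesn2 (0.69), Dnah2 (0.67) and Tmem180 (0.66). Among the ligands themselves r was 0.93 for Il1f6 with Il1f8, 0.81 for Il1f6 with Il1f9, 0.80 for Il1f5 with Il1f8, 0.79 for Il1f5 with Il1f9 and 0.86 for Il1b with Il18.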

How the data were processed

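Cells of adult mouse back skin from 4 groups, 1 library each, were measured by droplet 3′ single-cell RNA sequencing. The deposited table gives UMI counts (whole numbers) of 27998 genes over 23455 barcodes (6302, 5862, 5564 and 5727 in the order of the report). The submitters' processing notes name Cell Ranger 2.1.0 and mm10. The labels tell of a combined file in which a barcode suffix marks the library. Whether combining thinned the reads, and the annotation release, are not given in the sources used here. Class totals behind the CPM values were computed from the deposited counts.

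Barcodes with at least 200 genes and no more than 10% mitochondrial UMIs were kept, which removed 116, 192, 272 and 56. Scrublet (scikit-image 0.26.0 and scanpy 1.11.5, expected rate 0.05) called 120, 94, 78 and 118 doublets at a common score of 0.25, since its automatic threshold failed, and these were left out. Log-transformed counts, scaled to 10000 per cell, were clustered for all libraries together with 2000 variable genes, 30 components, 15 neighbours and the Leiden method (leidenalg 0.10.2, resolution 1). A cluster took a name with at least 3 markers 2-fold over the remaining clusters (10 CPM added), in at least 10% of its cells (4 markers for the bulge). Cells of unnamed clusters took their name from a clustering of their own library. UMIs were summed per class and library. CPM had exact Poisson, shares Clopper-Pearson and ratios conditional binomial 95% intervals (scipy 1.17.1). A value of 0 was replaced by 3 counts for a bound. Thinned cells held 1000 UMIs. The ratio script was tested on simulated data.

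The 9 ligands were all reported. Of the pathway list, at most 4 genes past the fold per leading class and comparison were named, by size, with further genes of the list where a gene had been named elsewhere. The 3 genes most like a ligand were those of the highest r among genes with at least 200 UMIs in the pairs. The members and lists were chosen with earlier results of these data known. The doublet score, details of the naming rule and 3 alternatives (leaving out fibroblast-led myeloid subclusters, Il1b-rich cells of other classes, or the fibroblast cluster with the highest Il33 level) were set after seeing the data. Tried as alternatives were also TMM factors (edgeR 4.0.16), a stricter filter, keeping doublets, other clusterings, thinning, other UMI minimums and a fold of 1.5.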

Additional observations from a re-analysis of the deposited data

Results flagged for a closer look

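The ratios of imiquimod to untreated lay on opposite sides of 1 under the control label and the Ovol1 null label for Il33 in keratinocytes. In basal cells the ratio was 0.853 in the control libraries and 1.20 in the libraries labelled Ovol1 null. TMM factors raise these basal log2 ratios by 0.18 and 0.16, so the control ratio lies nearer 1 under them. Its interval under those factors was not computed. In suprabasal cells the ratio was 0.578 and 2.41. The basal keratin Krt5 went from 2712 to 746 CPM in suprabasal cells of the control libraries. It went from 2642 to 4044 CPM in those labelled Ovol1 null, and its part in the Il33 ratios was not tested. Fibroblast Il1rn was 4.71-fold in the library labelled Ovol1 null untreated relative to control untreated, and 0.577 times the control level with imiquimod. With 1 library per group none of these differences was tested.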

How the results depend on the processing

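No paired analysis was possible because each group has 1 library. For the same reason no replicate could be left out. Of the 59 ligand and class pairs past the fold, 58 kept their call with TMM factors, 53 with at least 500 genes and at most 5% mitochondrial UMIs, 59 with doublets kept, 51 with each library clustered alone, 57 with joint clustering only and 53 at Leiden resolution 2. Without the Il1b-rich cells of other classes 47 kept it, 1 came within the fold, 2 turned and 9 had too few UMIs. With cells thinned to 1000 UMIs 21 kept it and 36 had too few UMIs, so most IL-36 ratios cannot be read at that depth. The class with the highest level was the same for 25 to 28 of 28 ligand and library pairs over the settings other than thinning, where it was the same for 17.

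The counts below changed, in the order control imiquimod against control untreated, Ovol1 null imiquimod against untreated, Ovol1 null against control untreated and Ovol1 null against control with imiquimod. After thinning the ligand pairs higher were 0, 10, 0 and 12, those lower were 1, 0 and 1 in the first, second and last, and list genes past the fold numbered 16, 33, 4 and 27, against 37, 68, 9 and 45. With no minimum of UMIs, 15 and 11 pairs were higher in the first and the third, 6 and 5 were lower in the third and the last, and list genes numbered 66, 104, 31 and 74. With a minimum of 5 UMIs these were 56 and 23 in the first and the third. At a fold of 1.5, 7 were higher and 2 lower in the first, 2 lower in the third and 5 lower in the last. In the third, 2 were higher and 1 lower with libraries clustered alone, 2 were higher at resolution 2, and 14 list genes passed with doublets kept. With the stricter filter 1 was lower in the last. Thinned, 7 cells held several IL-36 agonists, against 205. Without Il1b-rich cells of other classes the log2 ratio of Il1b turned to -0.068 in fibroblasts (Ovol1 null imiquimod against untreated) and -0.00058 in basal cells (Ovol1 null against control imiquimod). The cells left out were chosen by their Il1b count and lay only on the Ovol1 null imiquimod side, so both ratios could only fall. Beyond the settings' own construction (fewer UMIs, cells or minimums), the cause was not tested.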
